A study of Mus musculus with 4 samples.

Results

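Sv2c, Rnf152, Pros1, Fam20a, Pltp, Akap6, B3galt2, Ifi27l2b, Nav2 and Slc17a6 are 10 of the 21937 genes counted by RNA sequencing in splenic CD4+ T cells of B6 mice aged 6 weeks. They were picked by name from the counts themselves, as genes with few wild-type reads and many reads in the library labelled as the double knockout (KO). All cells had been stimulated with PMA and ionomycin, a phorbol ester and a calcium ionophore that together bypass the T cell receptor. There was 1 library for each of 4 groups: the library labelled double KO of Itch and WWP2; Itch KO (floxed Itch with Cd4cre, a Cre that acts in T lineage cells from the thymus onward); WWP2 KO (WWP2-/-); and wild type. The sources used here do not say how Itch was deleted in the double mutant, how many mice stood behind a library or how long cells were stimulated. With 1 library a group there is no replicate check and no test. The intervals below are exact 95% intervals for counting error, and they treat reads as independent although no molecular identifiers were counted.

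Itch and WWP2 are ubiquitin ligases of the NEDD4 family, which mark proteins for degradation or relocation and restrain T cell activation. T cells without Itch are known for a bias toward the type 2 helper programme. Most of the genes described here are textbook genes of other tissues (synapse, bone and tooth, muscle, blood plasma), and none is a standard marker of a T cell lineage.

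Depth was alike, from 17130747 to 17990392 counts a library. The library labelled double KO held 1135 Wwp2 reads, where Itch KO had 1332, WWP2 KO 4 and wild type 1363, so its label is in doubt and each difference below belongs to the library. Itch had 2389 reads in the library labelled double KO, 1914 in Itch KO, 1996 in WWP2 KO, against 2083 in wild type, but a count over the whole gene does not show whether a deleted part is missing. The defining CD4+ T cell markers were present in every library, with 9441 Cd4 reads in the library labelled double KO, 4262 in Itch KO, 2901 in WWP2 KO, against 4069 in wild type.

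The name near-silent held for 8 of the 10 genes, which had at most 10 wild-type reads. Pros1, with 20, and Nav2, with 95, did not meet that limit. Levels are given as CPM, the usual per-million share of a library's counts, after trimmed mean of M values (TMM) scaling. Across the 10 genes they ran from 10.2 to 90.8 CPM in the library labelled double KO, from 0 to 31.7 in Itch KO, from 0 to 11.4 in WWP2 KO and from 0 to 5.48 in wild type. For all 10 genes the library labelled double KO held the most reads.

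**Figure D1:**
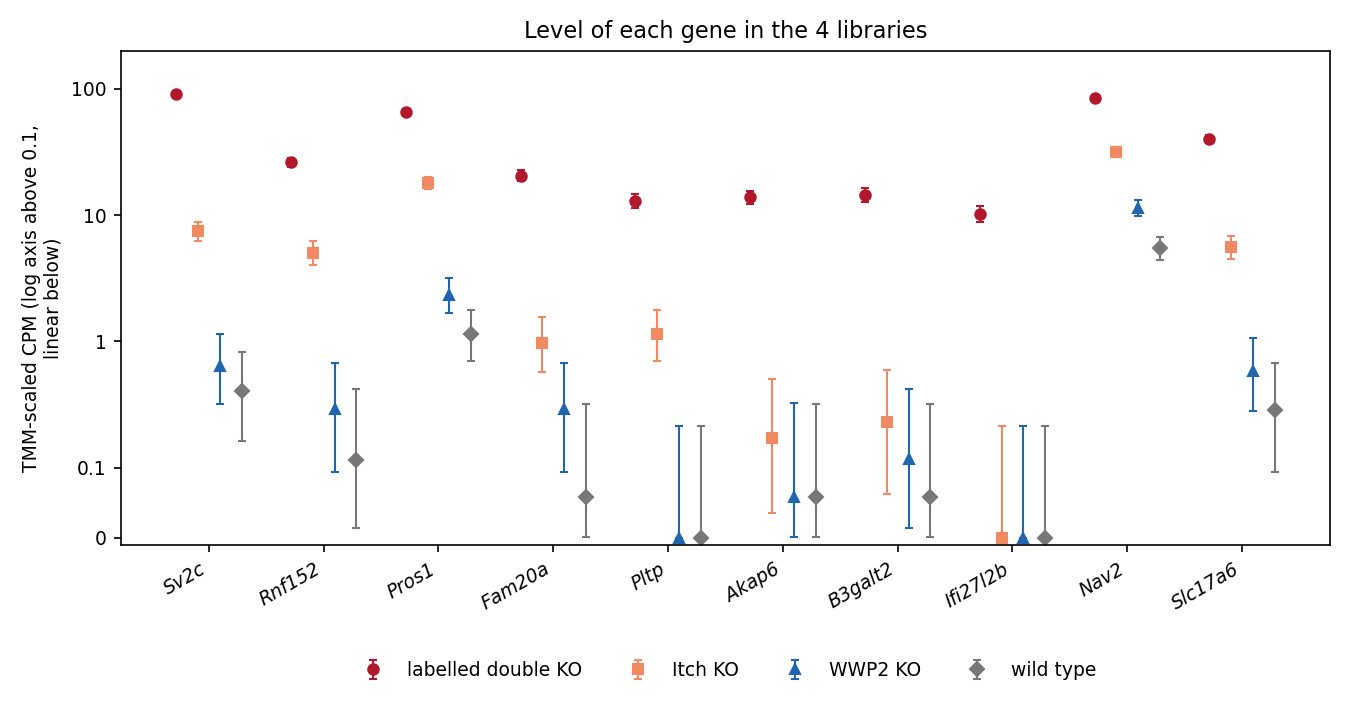
TMM-scaled CPM (y axis, logarithmic above 0.1 and linear below) of the 10 genes in the 4 libraries, with exact 95% Poisson intervals for counting error as bars. The library labelled double KO lies highest for every gene, between 10.2 and 90.8 CPM, and Itch KO lies between it and wild type for 9 of them; Ifi27l2b had 0 reads in Itch KO.

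Calls of 2-fold or more needed a log2 ratio of 1 (with a prior count of 2, which draws low counts toward 0), a mean of 2 CPM or more over the 4 libraries, and a fold interval that excluded 1. All 10 genes reached that mean, but without the library labelled double KO only 4 would have. The counts below therefore describe how the genes were chosen and support nothing. Against wild type, 10 of 10 were called higher in the library labelled double KO, where 12.3% of all 9926 genes at that level were. In Itch KO 7 were called higher, against 4.89% of all genes. In WWP2 KO 1 was, against 0.282%. The library labelled double KO was also called higher than Itch KO and than WWP2 KO for all 10, against 9.18% and 11.6% of all genes. Called lower were 0 of the 10 in each comparison. The shares of all genes called lower were 6.34% in the library labelled double KO, 0.846% in Itch KO and 0.161% in WWP2 KO against wild type. They were 5.16% and 6.05% in the library labelled double KO against Itch KO and against WWP2 KO.

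The promoters of 9 of the genes were in the RefSeq table (build GRCm38.p6, 250 bases before to 50 after the annotated start). Those of Akap6, Pros1 and Pltp are shown because they hold the matches to the searched motifs other than the E-box, in capitals. The Akap6 window is chr12:52699133-52699432, plus strand, the Pros1 window chr16:62854057-62854356, plus strand, and the Pltp window chr2:164857659-164857958, minus strand, each written 5′ to 3′ on the gene's strand.
Akap6: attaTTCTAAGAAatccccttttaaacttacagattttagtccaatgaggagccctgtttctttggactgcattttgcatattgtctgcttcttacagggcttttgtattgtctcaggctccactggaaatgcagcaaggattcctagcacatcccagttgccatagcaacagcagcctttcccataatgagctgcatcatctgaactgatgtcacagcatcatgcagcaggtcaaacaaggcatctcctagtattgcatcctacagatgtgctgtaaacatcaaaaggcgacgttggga
Pros1: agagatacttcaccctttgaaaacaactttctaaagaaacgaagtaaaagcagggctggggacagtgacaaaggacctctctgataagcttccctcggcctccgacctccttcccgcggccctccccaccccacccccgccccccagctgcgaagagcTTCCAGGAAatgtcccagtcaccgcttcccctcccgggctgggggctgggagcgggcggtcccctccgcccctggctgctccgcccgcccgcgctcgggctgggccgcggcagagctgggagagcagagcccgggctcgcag
Pltp: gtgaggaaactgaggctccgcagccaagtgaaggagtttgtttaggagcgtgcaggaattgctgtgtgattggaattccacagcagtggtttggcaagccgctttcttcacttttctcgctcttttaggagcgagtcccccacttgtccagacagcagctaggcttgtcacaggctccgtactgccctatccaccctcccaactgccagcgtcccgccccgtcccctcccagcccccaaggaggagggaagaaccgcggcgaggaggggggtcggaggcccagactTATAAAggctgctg
The capitals mark a match to TTCNNNGAA, the spaced palindrome that STAT factors bind, in Akap6 (from base -246) and Pros1 (from base -92), and TATAAA in Pltp (from base 37 after the start).

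The patterns were searched on both strands, and a match is a description of letters only. TTCNNNGAA was in 2 of the 9 genes' windows and in 8.30% of all 32851 promoters. TATAAA was in 1 and in 13.6%. The GATA pattern AGATAA (11.2% of all promoters), the AP-1 pattern TGANTCA (7.81%), the NFAT pattern GGAAAA (23.4%), the CRE pattern TGACGTCA (1.79%) and the NF-kB motif (0.411%) were in none of these windows. The E-box CANNTG was in those of 8 genes and in 72.3% of all promoters. Base composition was mixed: the ratio of observed to expected CpG ran from 0.141 for Akap6 to 1.01 for the second Nav2 start, and 4 of the 11 windows exceeded 0.6, as did 35.8% of all promoters.

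The vesicle genes come first. Sv2c encodes a synaptic vesicle glycoprotein of secretory vesicles. It had 1687 reads in the library labelled double KO, 129 in Itch KO, 11 in WWP2 KO, against 7 in wild type. The first of these stood 225-fold above wild type (109 to 560), and Itch KO stood 18.4-fold above it (8.69 to 46.7). Between WWP2 KO and wild type the fold was 1.59 (0.563 to 4.83), so the last pair was not separated at this depth. Slc17a6 encodes VGLUT2, which loads glutamate into synaptic vesicles. It had 744 reads in the library labelled double KO, 97 in Itch KO, 10 in WWP2 KO, against 5 in wild type. Its order of libraries was that of Sv2c, at 139-fold (59.2 to 429) and 19.4-fold (8.03 to 61.1) over wild type in the library labelled double KO and in Itch KO.

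Some of their relatives were silent, some level and some higher. Of 17 other synaptic vesicle genes, 8 stayed under 10 reads in every library. Of the 17, 7 reached 2 CPM. Of these 7, 3 were called higher and 0 lower in the library labelled double KO, against 12.3% and 6.34% of all genes, and 0 were called in Itch KO or WWP2 KO. Syn1, below 2 CPM, had 41 reads in the library labelled double KO against 6 in wild type (6.37-fold, 2.69 to 18.4). Sv2a had 67 reads in the library labelled double KO, 47 in Itch KO, 83 in WWP2 KO, against 67 in wild type, and Sv2b had 0 in each. Syt11, a synaptotagmin also used in immune cells, was called 4.66-fold above wild type (3.72 to 5.90) in the library labelled double KO, and the vesicle membrane gene Syp 2.66-fold (1.95 to 3.69). Among the transporters, Slc17a7 (VGLUT1) had 19 reads in the library labelled double KO, 7 in Itch KO, 2 in WWP2 KO, against 1 in wild type. Slc17a8 (VGLUT3) had 16 in the library labelled double KO, 13 in Itch KO, 4 in WWP2 KO, against 5 in wild type, and the vesicular GABA transporter gene Slc32a1 had at most 1 read. Of the 12 other genes on the transporter list 3 reached 2 CPM and so could be called, and 0 of these 3 were.

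Pros1, Pltp and Fam20a encode secreted or secretory pathway proteins. Pros1 encodes protein S, an anticoagulant plasma protein that also bridges dying cells to TAM receptor kinases. It had 1211 reads in the library labelled double KO, 312 in Itch KO, 40 in WWP2 KO, against 20 in wild type. The folds over wild type were 56.5 (36.4 to 92.8) in the library labelled double KO, 15.6 (9.92 to 25.9) in Itch KO and 2.02 (1.15 to 3.65) in WWP2 KO. No interval of a neighbouring pair in that order contained 1, although the log2 ratio of WWP2 KO with the prior count, 0.95, stayed short of the 2-fold rule. Per kilobase of annotated exon Pros1 was the most abundant of the 10 genes in the library labelled double KO, at 15.9 CPM per kilobase, and its wild-type level on that scale was 0.282.

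Protein S needs vitamin K-dependent carboxylation to work. Ggcx, the carboxylase gene, had 202 reads in the library labelled double KO, 75 in Itch KO, 93 in WWP2 KO, against 66 in wild type. Vkorc1, which encodes the enzyme that recycles vitamin K, had 109 reads in the library labelled double KO, 67 in Itch KO, 38 in WWP2 KO, against 37 in wild type. Both were called above wild type in the library labelled double KO, Ggcx 2.86-fold (2.15 to 3.83) and Vkorc1 2.75-fold (1.88 to 4.11). The receptor genes did not pass: Tyro3 stood at 1.51-fold (1.22 to 1.89) and Axl at 1.78-fold (1.51 to 2.11), while Mertk had 0 reads in every library. Gas6, the other TAM ligand gene, had 3 reads at most. At 2 CPM or above were 4 other genes of this list. Of these 4, 2 were called higher and 0 lower in the library labelled double KO, against 12.3% and 6.34% of all genes. The median log2 ratio of the 4 there was 1.12 against -0.03 over all genes, and 0 were called in Itch KO or WWP2 KO.

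Pltp encodes phospholipid transfer protein, a plasma protein that moves phospholipids between lipoproteins and is a target of the LXR nuclear receptors. It had 242 reads in the library labelled double KO, 20 in Itch KO, and 0 in both WWP2 KO and wild type. Its level was at least 75.3-fold higher than in wild type for the library labelled double KO and at least 6.66-fold higher for Itch KO, set against the limit of 3 reads that a count of 0 allows (0.173 CPM). The exact lower limits of the same folds, which also cover the counting error of the higher library, were 60.7 and 4.94. Its exons share 495 of 2562 bases with Ctsa on the opposite strand, and the strand setting of the counts is not known. Ctsa had 2837 reads in the library labelled double KO, 930 in Itch KO, 723 in WWP2 KO, against 728 in wild type. Ctsa was thus lowest in the libraries with 0 Pltp reads and highest where Pltp was highest, and the part of reads from the shared exon bases in the Pltp counts was not tested.

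Abca1, Scd2 and Abcg1, also LXR targets, were called above wild type in the library labelled double KO. The cholesterol exporter gene Abca1 had 247 reads there, 61 in Itch KO, 68 in WWP2 KO, against 58 in wild type, 3.97-fold (2.97 to 5.38) over the last. Scd2, a fatty acid desaturase gene, was 4.63-fold higher (4.06 to 5.30) and the exporter gene Abcg1 2.29-fold (1.68 to 3.14). Apoe was lower, with 94 reads against 188 in wild type. Srebf1 and Lpcat3 did not pass, at 1.59-fold (1.51 to 1.67) and 1.35-fold (1.25 to 1.47). Of the 13 other genes on the list 8 reached 2 CPM. Of these 8, 3 were called higher and 1 lower in the library labelled double KO, against 12.3% and 6.34% of all genes. In Itch KO 0 of the 8 were called in either direction.

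Fam20a encodes a pseudokinase of the secretory pathway that assists the kinase FAM20C, known for tooth enamel formation. It had 381 reads in the library labelled double KO, 17 in Itch KO, 5 in WWP2 KO, against 1 in wild type. Against the single wild-type read the fold was 355 with an interval from 63.4 upward, and Itch KO stood at 17-fold (2.66 to 710). Its partner gene Fam20c had 4 reads in the library labelled double KO, 12 in Itch KO, 3 in WWP2 KO, against 0 in wild type. Fam20b, the xylose kinase gene of proteoglycan synthesis, had 1576 reads in the library labelled double KO, 1005 in Itch KO, 883 in WWP2 KO, against 867 in wild type and did not pass.

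B3galt2 encodes a galactosyltransferase of the Golgi. It had 268 reads in the library labelled double KO, 4 in Itch KO, 2 in WWP2 KO, against 1 in wild type. The first library was 62.5-fold above Itch KO (24.1 to 231), while the other 3 were not separated from each other at this depth. The gene lies inside Cdc73 on the opposite strand and shares 679 of its 9288 exon bases with it. Cdc73 had 1483 reads in the library labelled double KO, 1652 in Itch KO, 1470 in WWP2 KO, against 1521 in wild type, and so did not move with B3galt2. Of 13 other genes of this enzyme group 8 reached 2 CPM, and 0 of these 8 were called against wild type in any library; B3gnt2, the most abundant, stood at 0.544-fold (0.522 to 0.568) in the library labelled double KO.

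The remaining genes act inside the cell. Akap6 encodes a large scaffold of the nuclear envelope that anchors protein kinase A, best known from heart muscle. It had 257 reads in the library labelled double KO, 3 in Itch KO and 1 each in WWP2 KO and wild type, 79.9-fold above Itch KO (27.1 to 390). On the scale of CPM per kilobase it was the lowest of the 10 genes in that library, at 0.931. Of 20 other anchoring protein and kinase A genes 13 reached 2 CPM. Of these 13, 2 were called above and 1 below wild type in the library labelled double KO, near the 12.3% and 6.34% of all genes. Akap12, a plasma membrane scaffold gene, had 144 reads there, 59 in Itch KO, 26 in WWP2 KO, against 25 in wild type, and was called in both the first library (5.37-fold, 3.50 to 8.58) and Itch KO (2.36-fold, 1.45 to 3.93). Prkaca, the catalytic subunit gene, was 2.18-fold higher (1.91 to 2.49), with 766 reads in the library labelled double KO, 275 in Itch KO, 307 in WWP2 KO, against 328 in wild type. The mitochondrial anchor gene Akap1 was lower, with 307 reads against 577 in wild type.

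Rnf152 encodes a lysosomal ubiquitin ligase that acts on the RagA GTPase and restrains mTORC1, the nutrient-sensing kinase complex. It had 485 reads in the library labelled double KO, 87 in Itch KO, 5 in WWP2 KO, against 2 in wild type. Itch KO was 43.5-fold above wild type (11.7 to 365), the largest Itch KO fold of the 8 genes with wild-type reads. That fold rests on 2 wild-type reads, and its interval overlapped those of all the others but Nav2. The library labelled double KO was a further 5.2-fold higher (4.13 to 6.61) than Itch KO. Of 23 other genes of Rag GTPase control 22 reached 2 CPM. Of these 22, 1 was called higher and 3 lower in the library labelled double KO, against 12.3% and 6.34% of all genes. Rraga had 1296 reads in the library labelled double KO, 1382 in Itch KO, 1235 in WWP2 KO, against 1385 in wild type. Rragd was called higher in both the library labelled double KO, 2.55-fold (2.18 to 3.0), and Itch KO, 2.77-fold (2.37 to 3.25), with 594 and 602 reads against 217 in wild type. All 3 sestrin genes, which encode stress-induced inhibitors of mTORC1, were called lower in the library labelled double KO: Sesn1 had 292 reads against 770 in wild type, Sesn2 209 against 797, and Sesn3 788 against 1725. None of the sestrin genes was called in Itch KO, and that difference between libraries was not tested.

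Nav2 encodes a neuron navigator, a cytoskeletal protein induced by retinoic acid. It had 1565 reads in the library labelled double KO, 550 in Itch KO, 195 in WWP2 KO, against 95 in wild type. Each library was separated from the next in that order beyond counting error, with folds of 2.66 (2.41 to 2.93) for the library labelled double KO over Itch KO, 2.79 (2.36 to 3.30) for Itch KO over WWP2 KO and 2.08 (1.62 to 2.68) for WWP2 KO over wild type. It was the gene called higher in WWP2 KO. Nav1 had 24 reads in the library labelled double KO, 25 in Itch KO, 8 in WWP2 KO, against 6 in wild type, and Nav3 had 0.

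Ifi27l2b belongs to the interferon-induced ISG12 family of small mitochondrial membrane proteins. It had 189 reads in the library labelled double KO and 0 in each of the other libraries, at least 58.8-fold above Itch KO and above wild type by the 3-read limit, with an exact lower limit of 47.3 for each. Of its 36-base stretches 1.71% also occur in its neighbour Ifi27l2a. The read length is not known, and how reads were divided between these genes was not tested. Ifi27l2a had 1413 reads in the library labelled double KO, 810 in Itch KO, 516 in WWP2 KO, against 740 in wild type, and Ifi27l1 had 933 in the library labelled double KO, 575 in Itch KO, 511 in WWP2 KO, against 504 in wild type. Neither passed the 2-fold rule against wild type, at 1.78-fold (1.63 to 1.95) and 1.73-fold (1.55 to 1.93). Of 14 other genes of the family and interferon-induced genes 11 reached 2 CPM. Of these 11, 2 were called higher and 3 lower in the library labelled double KO, against 12.3% and 6.34% of all genes. The higher ones were Mx1 (3.19-fold, 2.04 to 5.15) and Isg15 (2.42-fold, 2.02 to 2.90). The lower ones were Ifit1 (71 reads against 366 in wild type), Ifit2 (220 against 756) and Ifit3 (22 against 236).

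**Figure D2:**
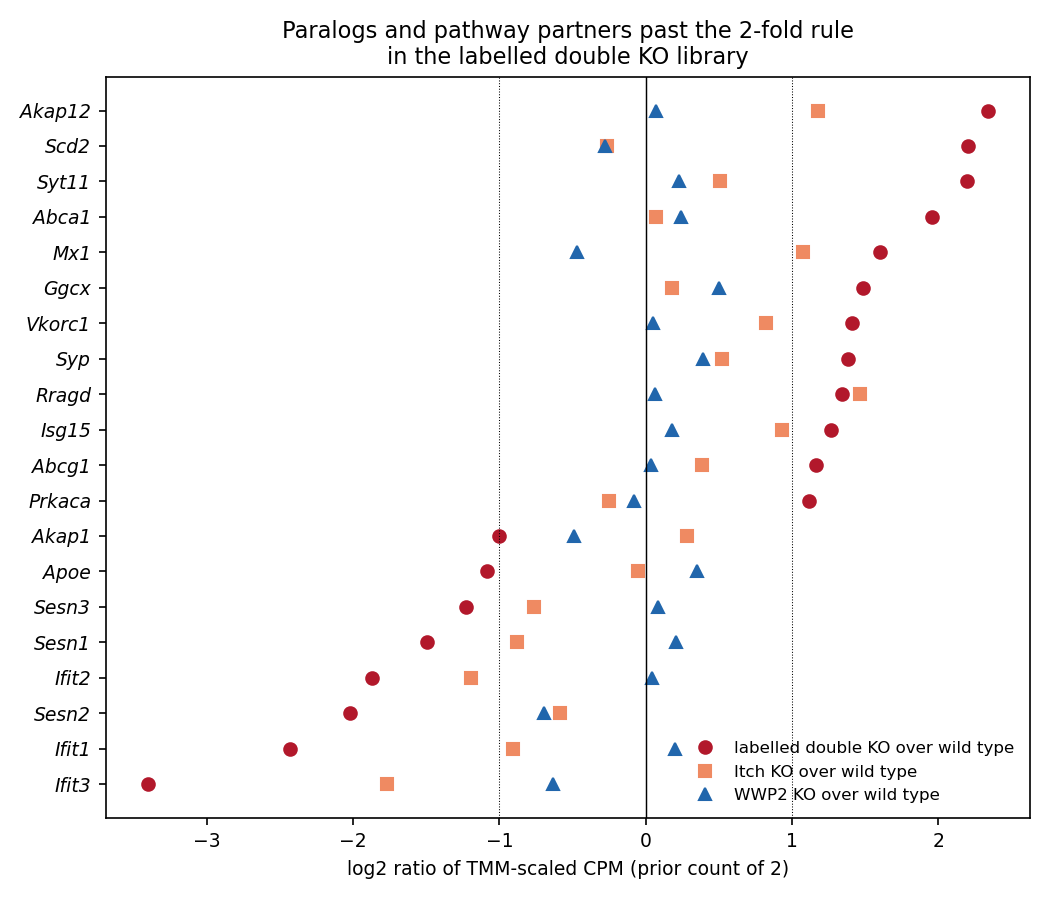
Log2 ratio to wild type (x axis, TMM-scaled CPM with a prior count of 2) of 20 of the 21 paralogs and pathway partners called in the library labelled double KO, for that library, Itch KO and WWP2 KO; dotted lines mark 2-fold. The points of the library labelled double KO run from 2.34 for Akap12 to -3.40 for Ifit3, and those of WWP2 KO stay inside the dotted lines.

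Over all 10 lists, 128 genes other than the 10 were counted and 77 reached 2 CPM. Of these 13, or 16.9%, were called higher and 8 lower in the library labelled double KO, against 12.3% and 6.34% of all genes, with a median log2 ratio of 0.13 against -0.03. In Itch KO 3 of the 77 were called higher and 2 lower, against 4.89% and 0.846% of all genes. In WWP2 KO 0 and 0 were, against 0.282% and 0.161%. The folds of these relatives stayed at or under 5.37 among those called, against 15.4 and upward for the 10 genes, which were selected for their size.

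The question put to the 10 genes was how the step at Itch KO compares with the step from there to the library labelled double KO. Both steps share the Itch KO library. On the log2 scale without a prior count, 8 genes had reads enough for both. The Itch KO step was larger in 5 of them (Sv2c, Rnf152, Pros1, Nav2 and Slc17a6) and the second step in 3 (Fam20a, Akap6 and B3galt2). With a prior count of 5 Sv2c changed sides, at 3.56 to the library labelled double KO and 3.49 at Itch KO, which made it 4 and 4. The intervals of the 2 steps did not overlap in Rnf152, Pros1 and Nav2, each with the larger step at Itch KO. The genes were chosen for few wild-type reads, which favours a large step at Itch KO. They were also chosen for many reads in the library labelled double KO, which favours a large second step. These intervals do not allow for that choice, so whether they overlap is a description only. For Rnf152 the step to the library labelled double KO was 2.38 (2.05 to 2.73) and the step at Itch KO 5.44 (3.55 to 8.51). For Pros1 the step to the library labelled double KO was 1.86 (1.68 to 2.04) and the step at Itch KO 3.96 (3.31 to 4.69). Nav2 had 1.41 (1.27 to 1.55) to the library labelled double KO and 2.53 (2.22 to 2.86) at Itch KO. Akap6 had 6.32 (4.76 to 8.61) to the library labelled double KO and, at Itch KO, 1.58 (-2.05 to 7.30), which overlap, with 3 reads in Itch KO and 1 in wild type.

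**Figure D3:**
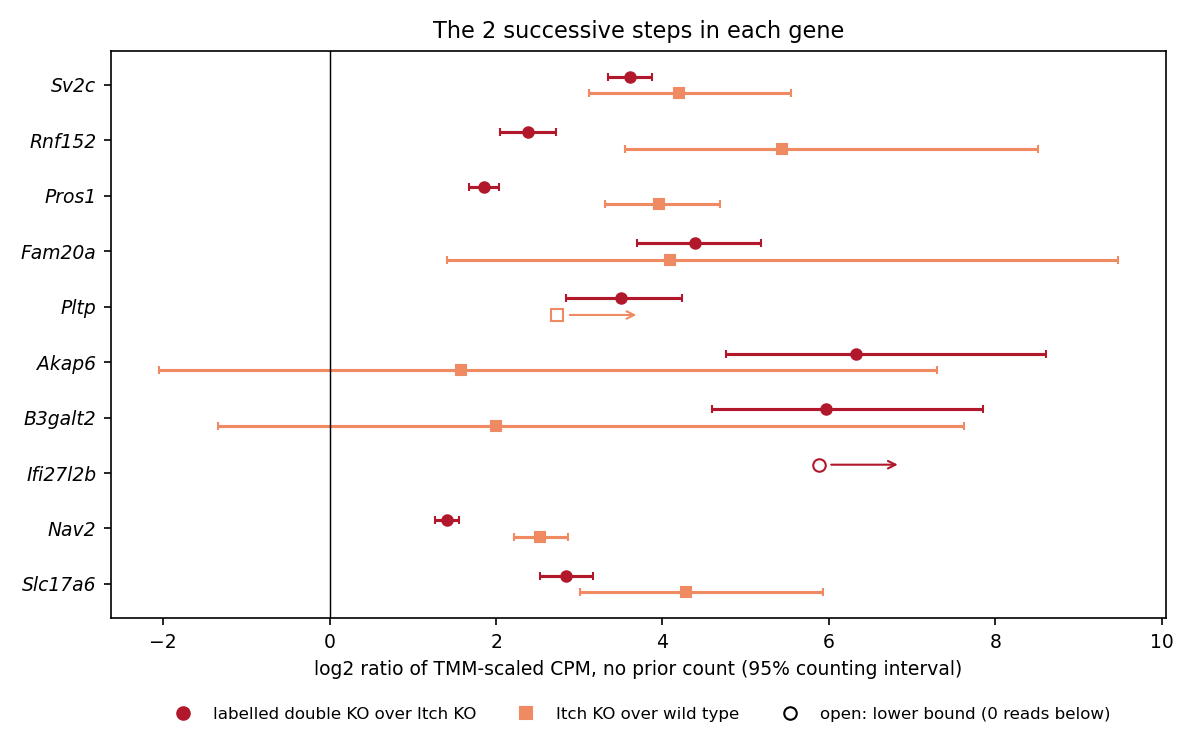
Log2 ratios (x axis, TMM-scaled CPM without a prior count) of the library labelled double KO over Itch KO (circles) and of Itch KO over wild type (squares) for each gene, with 95% counting intervals as bars and open symbols with arrows for lower bounds. Rnf152, Pros1 and Nav2 have squares clear of their circles on the right; Ifi27l2b, with 0 reads in Itch KO and wild type, has a bound for the second step alone, at 5.88.

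Counted in CPM instead of ratios, the order was the same for all 10 genes: more of the gain came with the step to the library labelled double KO. That step took 66.7% of the total gain over wild type for Nav2, 73.7% for Pros1, 81.1% for Rnf152, 86.7% for Slc17a6, 92.2% for Sv2c, 91.1% for Pltp, 95.5% for Fam20a, 98.8% for B3galt2, 99.2% for Akap6 and all of it for Ifi27l2b. The level reached in Itch KO ran over a continuous range, in which the intervals of neighbouring genes overlapped from Rnf152 downward. Nav2, Pros1, Rnf152 and Slc17a6 stood at 37.7% (34.1 to 41.5), 27.6% (24.3 to 31.3), 19.2% (15.1 to 24.2) and 14% (11.2 to 17.3) of the level in the library labelled double KO. Pltp, Sv2c and Fam20a stood at 8.86% (5.31 to 14), 8.19% (6.80 to 9.80) and 4.78% (2.76 to 7.76). B3galt2 and Akap6 stood at 1.60% (0.433 to 4.14) and 1.25% (0.256 to 3.70), and Ifi27l2b at 0, which allows up to 1.70% at 3 reads, with an exact upper limit of 2.11%. For B3galt2, Akap6 and Ifi27l2b Itch KO was not separated from wild type at this depth.

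The same quantity was taken over all genes that were near-silent in wild type. Of 11118 genes with at most 10 wild-type reads, 156 (1.4%) reached 50 reads in the library labelled double KO, 19 (0.171%) in Itch KO and 1 (0.00899%) in WWP2 KO. Among the 156 were the 8 near-silent genes of the list, Sv2c first and Ifi27l2b 41st by reads in the library labelled double KO. The Itch KO level was a median of 19% of the level there over the 156 genes, with quartiles of 8.80% and 31.1%. It was under 2% in 13 (8.33%), B3galt2, Akap6 and Ifi27l2b among them. In 93 (59.6%) the Itch KO level was above wild type beyond counting error. The genes were chosen for few wild-type reads, and the interval of that fold does not allow for the choice. The percentage of the level in the library labelled double KO likewise has reads that chose these genes as its denominator, and it depends on their number. Of the 41 genes with at least 189 reads in the library labelled double KO, 7 (17.1%) were under 2%, and the median was 8.86%.

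**Figure D4:**
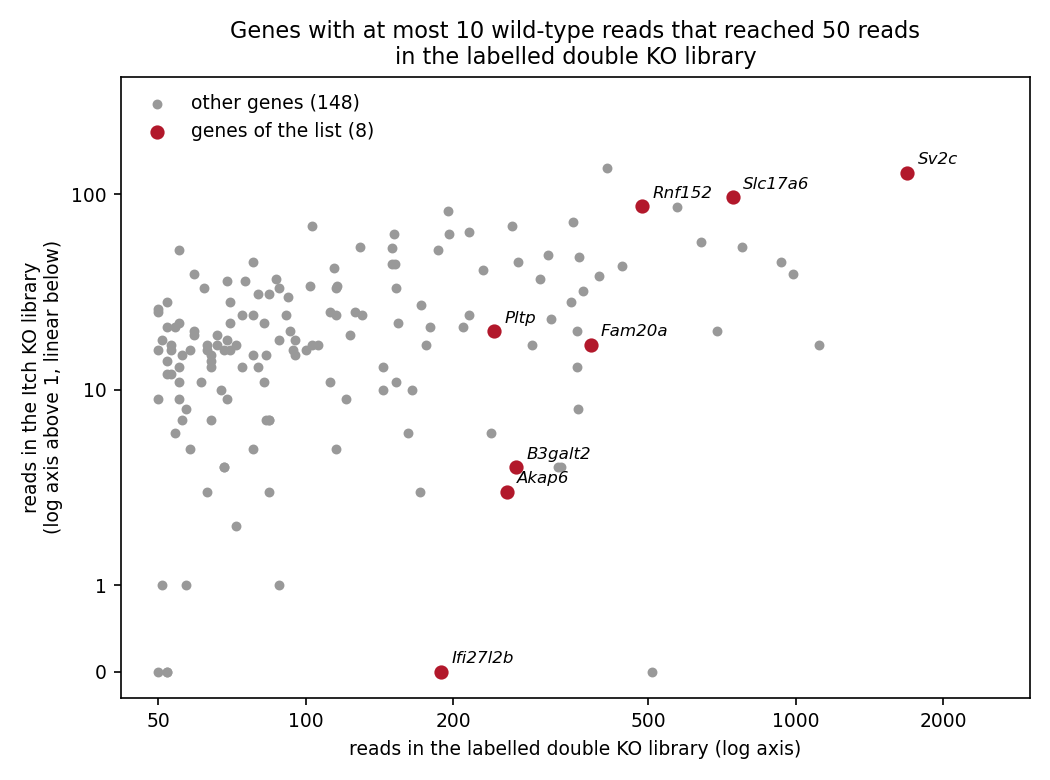
Reads in Itch KO (y axis, logarithmic above 1 and linear below) against reads in the library labelled double KO (x axis, logarithmic) for the 156 genes with at most 10 wild-type reads and at least 50 reads in the library labelled double KO. The 8 named genes lie from 189 to 1687 reads on the x axis, and Ifi27l2b, Akap6 and B3galt2 lie at 0, 3 and 4 reads on the y axis.

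In WWP2 KO, 7 of the 10 genes had more reads than in wild type, 0 had fewer and 3 were equal. The sums over the 10 were 269 reads in WWP2 KO and 132 in wild type, with Nav2 and Pros1 making up most of each. Only for these last genes did the interval exclude 1. Over the 156 genes, 89 had more reads in WWP2 KO than in wild type, 47 had fewer and 20 were equal, with sums of 1188 reads in WWP2 KO and 795 in wild type. Klk1b22 alone had 115 reads in WWP2 KO and 0 in wild type. Both sets of genes were chosen for few wild-type reads, which by itself favours more reads in any other library. These counts and sums therefore support nothing about WWP2 KO.

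Genes outside the list were ranked by the distance of their 3 log2 ratios to wild type from the list's median profile, which was 6.57 in the library labelled double KO, 3.08 in Itch KO and 0.67 in WWP2 KO. Among 9159 named genes the 6 nearest were Lgals3, Col1a1, Bcar3, Il1rl1, Ccr1 and Il1rn, at distances of 0.28 to 0.88 over 4 libraries. Il1rl1, the IL-33 receptor gene that marks type 2 helper cells, had 19545 reads in the library labelled double KO, 1785 in Itch KO, 266 in WWP2 KO, against 249 in wild type. Lgals3, a galectin gene, had 3430 in the library labelled double KO, 234 in Itch KO, 45 in WWP2 KO, against 31 in wild type. Col1a1, a collagen gene, had 209 in the library labelled double KO, 21 in Itch KO, 3 in WWP2 KO, against 1 in wild type, and Bcar3, a signalling adaptor gene, had 176 in the library labelled double KO, 17 in Itch KO, 3 in WWP2 KO, against 0 in wild type.

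The chromosomal surroundings were examined next, by names alone since the annotation at hand is of another build than the mm9 of the counts. The 10 genes lie on 7 chromosomes. Their median span was 64.2 kb, against 18.3 kb over protein-coding genes and 24.0 kb over 149 of the 156 near-silent genes, and 6 of the 10 exceed 50 kb, as 23.8% of protein-coding genes do. Of 62 neighbours (the 3 nearest counted genes on each side and those overlapping), 30 reached 2 CPM. Of these 30, 9 (30%) were called higher in the library labelled double KO and 0 lower, against 12.3% and 6.34% of all genes. The median log2 ratio was 0.53, against -0.03 over all genes. The mean of 2 CPM includes the library labelled double KO, so a neighbour high there can pass through that library. Neighbours of 1 gene are not independent and Ctsa shares exon bases with Pltp, so the 9 are a description only.

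The Sv2c locus held 3 of the 9, all on one side of it. F2rl2, a thrombin-responsive receptor gene of the PAR family, had 396 reads in the library labelled double KO, 38 in Itch KO, 9 in WWP2 KO, against 5 in wild type, 73.9-fold over the last (31.4 to 229) in the first and 7.60-fold (2.99 to 24.7) in Itch KO. Its relative F2r, the thrombin receptor gene, had 6432 reads in the library labelled double KO, 1501 in Itch KO, 1543 in WWP2 KO, against 1209 in wild type, a 4.96-fold difference (4.67 to 5.28). Iqgap2, a scaffold gene of the actin cytoskeleton, had 2354 reads in the library labelled double KO, 737 in Itch KO, 641 in WWP2 KO, against 516 in wild type, a 4.26-fold difference (3.87 to 4.69). Across Sv2c from these, Poc5, Ankdd1b and Polk were not called.

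Around the other genes the neighbours called higher were Ctsa beside Pltp (3.64-fold, 3.35 to 3.95), Egln3 and Arhgap5 beside Akap6 (3.61-fold, 3.17 to 4.11, and 2.27-fold, 2.04 to 2.52), E2f8 and Htatip2 beside Nav2 (13.5-fold, 8.88 to 21.7, and 2.73-fold, 2.31 to 3.25) and Gas2 beside Slc17a6 (4.88-fold, 3.51 to 6.93). In Itch KO 3 of the 30 neighbours at 2 CPM, F2rl2, E2f8 and Gas2, were also called higher, against 4.89% of all genes. Beside Rnf152, Pros1, Fam20a, B3galt2 and Ifi27l2b the neighbours that reached 2 CPM included 0 called genes. Below that level, 1700012B07Rik beside Fam20a had 34 reads in the library labelled double KO, 8 in Itch KO and 0 in both WWP2 KO and wild type, with an exact lower limit of 8.14 for the first over wild type. Tnfrsf11a beside Rnf152 had 19 reads in the library labelled double KO, 11 in Itch KO, 0 in WWP2 KO, against 2 in wild type. Slc17a6 has 3 genes without a read in any library on one side, Nell1 and Ano5 among them.

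**Figure D5:**
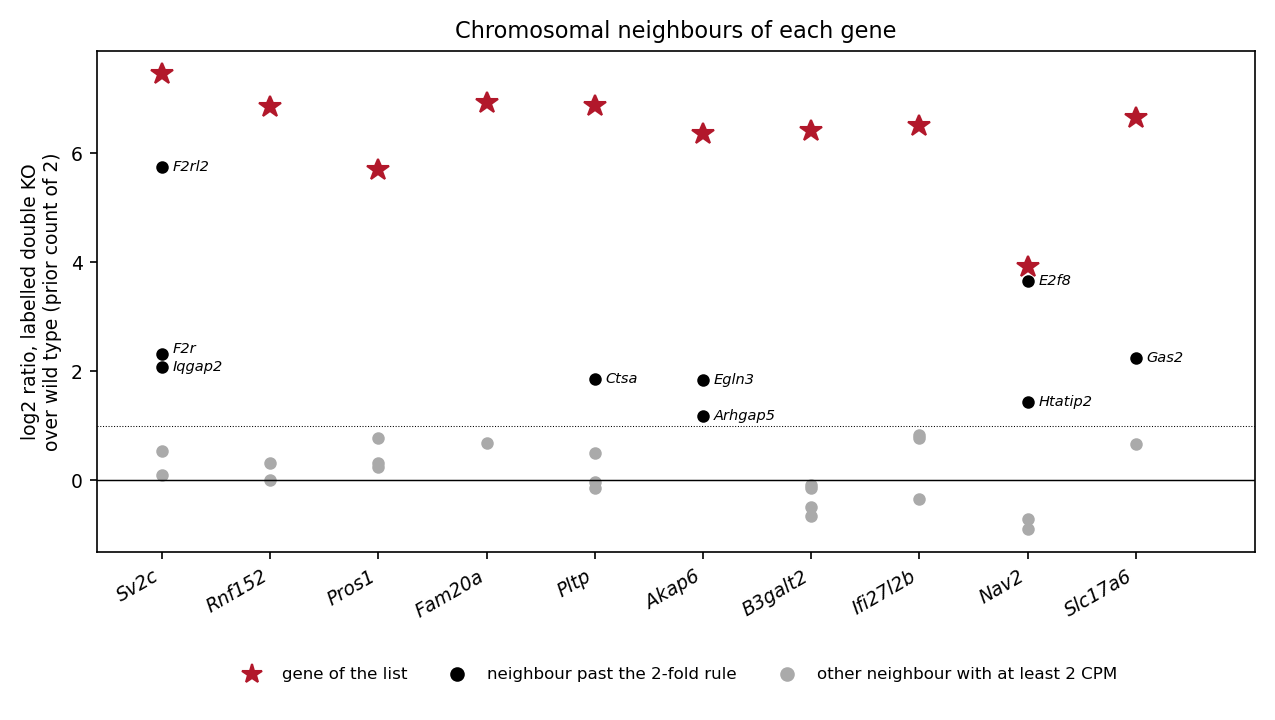
Log2 ratio of the library labelled double KO over wild type (y axis, TMM-scaled CPM with a prior count of 2) for each of the 10 genes (stars) and its neighbours of at least 2 CPM (dots, black where called at least 2-fold higher); the dotted line marks 2-fold. F2rl2, F2r and Iqgap2 stand above the line under Sv2c, and 9 black dots are seen in all.

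Since most of the genes are best known from other tissues, markers of other cell types were read beside them. In whole-population RNA, fewer cells of a type and less RNA per cell cannot be told apart. Neuronal markers summed to 5.06 CPM in the library labelled double KO, 4.79 in Itch KO, 2.80 in WWP2 KO, against 2.08 in wild type, with Rbfox3 at 0 reads in each and Snap25 at 1 read or fewer. Gad1, Gad2 and Slc17a7 carried most of that sum. Gad1 had 35 reads in the library labelled double KO, 49 in Itch KO, 17 in WWP2 KO, against 20 in wild type, and Gad2 had 32 reads in the library labelled double KO, 16 in Itch KO, 18 in WWP2 KO, against 11 in wild type. Mast cell and basophil markers summed to 5.38 CPM in the library labelled double KO, 11 in Itch KO, 28.9 in WWP2 KO, against 24.9 in wild type, mostly Kit. Mcpt8 had 12 reads in the library labelled double KO, 0 in Itch KO, 2 in WWP2 KO, against 0 in wild type, and Mcpt4, Fcer1a, Ms4a2, Tpsb2 and Cma1 had 0 reads in every library. Macrophage markers summed to 20.6 CPM in the library labelled double KO, 7.03 in Itch KO, 3.91 in WWP2 KO, against 4.10 in wild type; 354 of the 382 reads in the library labelled double KO were of Cd68, C1qa and C1qc had 0, and 8 of 10 genes had at most 10. Dendritic cell markers summed to 23.2 CPM in the library labelled double KO, 15.7 in Itch KO, 5.37 in WWP2 KO, against 8.13 in wild type. In the library labelled double KO Xcr1 led with 322 reads, against 54 in wild type. Itgax had 38 reads in the library labelled double KO, 27 in Itch KO, 2 in WWP2 KO, against 12 in wild type. Zbtb46 had 71, 106, 40 and 64 reads in the same order. Flt3 and Siglech had 0 in the library labelled double KO, while Siglech had 26 in Itch KO against 9 in wild type. Stromal and endothelial markers summed to 77.2 CPM in the library labelled double KO, 62.6 in Itch KO, 77.5 in WWP2 KO, against 75.1 in wild type, mostly Pecam1. Col1a1 of that list had 209 reads in the library labelled double KO, 21 in Itch KO, 3 in WWP2 KO, against 1 in wild type, in the same order as the 10 genes, while Col1a2 had 7 reads or fewer and Col3a1 and Pdgfra 1 or fewer. Neutrophil markers summed to 1.18 in the library labelled double KO, 0.288 in Itch KO, 0.175 in WWP2 KO, against 0 in wild type. The CD8, B cell, eosinophil, natural killer and erythroid lists did not exceed wild type in the library labelled double KO. The part of Cd68 or Xcr1 expressing cells in the values above was not tested.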

How the data were processed

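RNA sequencing gave 1 library for each of 4 genotypes. The authors deposited raw read counts per gene for 21937 gene symbols, without scaling. Per the submitters' processing notes, HTSeq 0.7.1, TopHat 1.4.1 and Bowtie 1.0.0 were used with build mm9; the sources used here give no annotation, strand setting or read length.

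Counts were scaled by TMM factors from all 4 libraries (edgeR 4.0.16, R 4.3.3). Fold intervals are exact conditional binomial, level intervals exact Poisson (Python 3.11.15, scipy 1.17.1), and a count of 0 was set to 3 reads for bounds. No test was run, since a genotype has 1 library and the genes were chosen from these values. The 10 genes and the lists were chosen with earlier results of these data known. Calls were tested on simulated counts with known folds. Named relatives are those past the rule and the paralogs; neighbours are those past it or overlapping; 1 relative past the rule is not reported here. Exon lengths and shared 36-base stretches came from GENCODE M21 (GRCm38), neighbours and promoters from RefSeq GRCm38.p6, which matched 99.0% of symbols. Alternatives were DESeq2 1.42.0 size factors, total counts, other prior counts, filters and thresholds.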

Additional observations from a re-analysis of the deposited data

How the results depend on the processing

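DESeq2 size factors, total count scaling and prior counts of 0.5 or 5 changed none of the 5 counts of genes called higher, and 0 of the 50 log2 ratios under each changed sign in a called gene; 9 left their counting interval, all under the prior count of 5. Among alternatives chosen after seeing the data, a prior count of 5 also turned the difference of the 2 steps in Sv2c to -0.0709. That difference is the step at Itch KO minus the step to the library labelled double KO. The other settings were prior counts of 0.5 and 2, DESeq2 size factors and total counts. Of the 8 genes with reads for both steps, these kept 5 larger at Itch KO and 3 larger after it. Requiring a mean of 10 CPM left 4 of the 10 genes called higher in the library labelled double KO over wild type, over Itch KO and over WWP2 KO, and 4 in Itch KO over wild type, because 6 no longer reached the mean. At 4-fold, the library labelled double KO over Itch KO kept 8 called genes and WWP2 KO over wild type had 0. Chosen after seeing the data, a filter on the pair compared gave 5 instead of 7 in Itch KO over wild type, and TMM factors without the library labelled double KO kept 7 and 1 in the single knockouts. The 156 near-silent genes became 82 with at most 5 wild-type reads, 278 with at most 20, and 74 with at least 100 reads in the library labelled double KO, which held 7, 9 and 8 of the 10 genes.

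Counts over all genes moved with the filter and the fold. With no filter, a mean of 10 CPM and a 4-fold threshold, genes higher in the library labelled double KO over wild type numbered 1924, 666 and 532 instead of 1220, over Itch KO 1421, 452 and 181 instead of 911, and over WWP2 KO 1780, 625 and 500 instead of 1155. In Itch KO over wild type a mean of 10 CPM gave 233 and a 4-fold threshold 117 instead of 485, and in WWP2 KO over wild type the 3 settings gave 117, 6 and 5 instead of 28. No paired analysis was possible because each genotype has 1 library, and for the same reason no replicate could be left out. Depth limits the low end: libraries with 0 to 5 reads of a gene were not separated from each other, and folds over 1 or 2 reads have intervals spanning more than an order of magnitude.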

Other observations

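Other genes of the 156 with at most 10 wild-type reads, chosen after their values were seen, included hormone and signalling genes. Cyp11a1, which encodes the first enzyme of steroid hormone synthesis, had 358 reads in the library labelled double KO, 13 in Itch KO, 4 in WWP2 KO, against 6 in wild type. Calca, the gene of calcitonin and the neuropeptide CGRP, had 301 in the library labelled double KO, 37 in Itch KO, 6 in WWP2 KO, against 5 in wild type. Hhex, a homeobox transcription factor gene, had 778 in the library labelled double KO, 54 in Itch KO, 12 in WWP2 KO, against 10 in wild type, and Jag1, a Notch ligand gene, had 312 in the library labelled double KO, 49 in Itch KO, 6 in WWP2 KO, against 10 in wild type. Dnase1l3, which encodes a secreted nuclease, had 933 in the library labelled double KO, 45 in Itch KO, 4 in WWP2 KO, against 7 in wild type. Their Itch KO levels were 3.89%, 13.2%, 7.44%, 16.8% and 5.17% of the level in the library labelled double KO. These genes have no replicate check.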
